A study of Mus musculus with 22 samples.

Results

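CTCF and RAD21 peaks of wild-type (WT) small intestinal crypts were set against each other site by site. Crypts are the pits of the intestinal epithelium that hold its stem cells. Both ChIP-seq libraries (chromatin immunoprecipitation and sequencing, which maps where a protein sits on DNA) came from C57BL/6 mice of the Villin-Cre line. They are 2 of the 22 samples of the study, 16 of which have a peak list. The study deletes Pcgf6, which encodes a Polycomb RING finger protein, in adult gut epithelium. In the Villin-Cre line the Villin promoter, active in that epithelium, drives the Cre. In the AhCre line, induced with BNF, the Ah promoter does. The other groups used here were CTCF and RAD21 of Pcgf6 knockout (KO) Villin-Cre crypts, RING1B and H2AK119ub1 of WT Villin-Cre crypts, and PCGF6, RING1B and H2AK119ub1 of WT AhCre crypts. The design text describes male mice of 8 to 12 weeks, taken 7 days after tamoxifen in the Villin line, but it does so for RNA samples and gives nothing of this kind for the ChIP crypts. Whether the WT mice carried the Cre or received tamoxifen was not given either. Every group had 1 library and the labels give no number of mice, so values carry no replicate error and groups could not be tested against each other.

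A CTCF peak was called shared when at least 1 bp of it overlapped a RAD21 peak, and CTCF only otherwise, and a RAD21 peak without a CTCF peak was called RAD21 only. The CTCF list held 32651 peaks and the RAD21 list 20653. Of these, 17850 CTCF peaks were shared (with 18000 RAD21 peaks), 14801 were CTCF only and 2653 RAD21 peaks were RAD21 only.

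CTCF is a zinc finger protein that binds a long, directional DNA motif. RAD21 is the subunit that closes the ring of cohesin, the complex that holds sister chromatids together and extrudes loops of chromatin. In vertebrate cells cohesin that extrudes a loop is known to halt at CTCF, so the proteins share many sites, and loops tend to form between CTCF motifs that point at each other. Cohesin is also loaded and found at active promoters and enhancers without CTCF.

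The core of the CTCF motif, searched on both strands as CCA, 2 bases of any kind, AG, 2 bases of any kind and GGC, was read in the 300-base windows around RefSeq gene starts. No peak sequence outside those windows was read. The start windows of strong shared and strong CTCF-only sites below show what the letters look like where the classes meet the same kind of motif. All are 40 bases of the motif's own strand, written 5′ to 3′ with the core in capitals (RefSeq, mm10 positions). The shared ones lay at Rsad1 (chr11:94549274-94549313, minus strand), Vps18 (chr2:119288649-119288688, minus strand), Uqcrc1 (chr9:108936602-108936641, plus strand), Kif1b (chr4:149307899-149307938, minus strand), Snx18 (chr13:113618688-113618727, minus strand) and Ndufa6 (chr15:82354416-82354455, plus strand). The CTCF-only ones lay at Atp6v1d (chr12:78861800-78861839, minus strand), Rint1 (chr5:23787613-23787652, plus strand), Mrpl34 (chr8:71464775-71464814, minus strand) and Scap (chr9:110333239-110333278, plus strand).
Rsad1, shared: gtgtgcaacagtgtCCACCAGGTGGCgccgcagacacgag
Vps18, shared: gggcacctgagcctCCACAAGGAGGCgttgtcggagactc
Uqcrc1, shared: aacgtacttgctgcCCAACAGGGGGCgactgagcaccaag
Kif1b, shared: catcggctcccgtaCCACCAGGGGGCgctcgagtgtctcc
Snx18, shared: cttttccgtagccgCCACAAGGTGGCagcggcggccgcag
Ndufa6, shared: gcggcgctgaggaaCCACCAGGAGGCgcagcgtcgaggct
Atp6v1d, CTCF only: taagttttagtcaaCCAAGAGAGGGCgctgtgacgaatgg
Rint1, CTCF only: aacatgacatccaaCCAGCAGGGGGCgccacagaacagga
Mrpl34, CTCF only: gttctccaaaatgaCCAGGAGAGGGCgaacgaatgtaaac
Scap, CTCF only: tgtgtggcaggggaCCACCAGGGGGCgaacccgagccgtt
Kif1b and Scap carry the same 12 core letters, with CTCF scores of 495 and 338, yet RAD21 was called (score 74.4) at Kif1b and not at Scap.

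The 120 bases just before the start are shown for the top 3 RAD21-only sites at gene starts, as examples without a core match upstream of the start. The peaks reach beyond the bases searched, and the rest of each was not read. Arrdc3 encodes an arrestin-domain protein, Ror2 a receptor tyrosine kinase of Wnt signalling, and Cblb an E3 ubiquitin ligase. The stretches are chr13:80885975-80886094 (plus strand) for Arrdc3, chr13:53286125-53286244 (minus strand) for Ror2 and chr16:52031429-52031548 (plus strand) for Cblb. No core was found in their 250 bases upstream, so nothing is in capitals.
Arrdc3, RAD21 only: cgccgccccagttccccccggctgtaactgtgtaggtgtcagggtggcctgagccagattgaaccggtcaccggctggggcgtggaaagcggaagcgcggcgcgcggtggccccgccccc
Ror2, RAD21 only: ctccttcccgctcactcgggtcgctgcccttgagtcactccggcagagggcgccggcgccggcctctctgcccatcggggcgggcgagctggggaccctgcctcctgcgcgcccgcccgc
Cblb, RAD21 only: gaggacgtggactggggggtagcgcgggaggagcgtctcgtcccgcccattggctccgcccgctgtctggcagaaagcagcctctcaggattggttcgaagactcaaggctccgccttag
The GC content of the 250 upstream bases was 71.6% at Arrdc3, 73.2% at Ror2 and 58.8% at Cblb. A missing match says only that these letters are not in the window: the closest run in the Ror2 stretch differs from the core at 1 of its 8 fixed letters, and those in the Arrdc3 and Cblb stretches at 2.

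Most RAD21 peaks lay on CTCF, while just over 50% of CTCF peaks carried RAD21. Of the CTCF peaks, 54.7% overlapped a RAD21 peak (exact 95% interval 54.1 to 55.2), and of the RAD21 peaks 87.2% overlapped a CTCF peak (86.7 to 87.6). Intervals here are Clopper-Pearson and cover counting error only. Read counts are not part of the lists and their depth is unknown, and a factor that is absent from a list may lie under the authors' threshold. Fewer cells with a factor and less of it per cell cannot be told apart in such bulk chromatin. The lists made in KO crypts, which were not used to make the classes, gave 51.1% of CTCF peaks with RAD21 (50.5 to 51.6), against the 54.7% of WT, and 93.5% of RAD21 peaks with CTCF (93.1 to 93.9), against the 87.2% of WT. Unequal list lengths bear on the contrast between the factors: with the CTCF list shortened to the 20653 strongest peaks, 75.6% of CTCF and 76.6% of RAD21 peaks overlapped.

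The classes differed sharply in peak score, the authors' −log10 p or q value of each peak, which was 10 or more throughout. The median CTCF score was 118 at shared and 28.2 at CTCF-only sites, and the median RAD21 score was 34.5 at shared and 12.8 at RAD21-only sites. CTCF peaks were also wider when shared, at a median of 916 bp against 546 bp for CTCF only. RAD21 peaks were not: their median width was 614 bp when shared and 657 bp when RAD21 only.

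Cut into 10 equal groups by score (deciles, 1 the weakest), the share of CTCF peaks with RAD21 climbed without a break through the list. It was 12.6% in decile 1 (11.5 to 13.8), 47.6% in decile 5 (45.8 to 49.3) and 95.4% in decile 10 (94.6 to 96.1). The share of RAD21 peaks with CTCF was 42.8% in decile 1 (40.7 to 45.003), 95.8% in decile 5 (94.9 to 96.7) and 99.9% or more in each of the top 3. Strong RAD21 without CTCF was therefore rare: 3 of 5960 RAD21 peaks with a score of 50 or more had no CTCF peak, and 1 of 1606 with 100 or more. Strong CTCF without RAD21 was less so, with 1156 of 11664 CTCF peaks at 100 or more and 158 of 3369 at 200 or more.

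**Figure D1:**
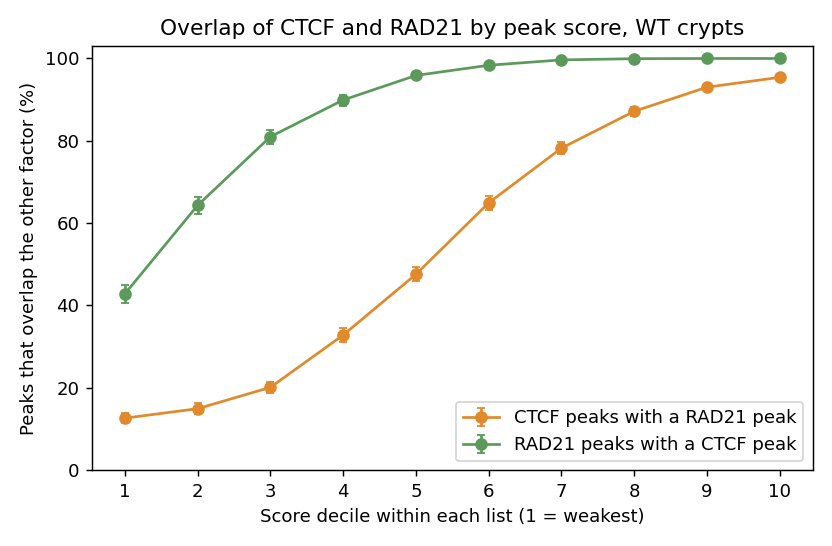
Share of peaks that overlap the other factor (y axis, percent) by score decile within each list (x axis, 1 the weakest), for CTCF and RAD21 of WT Villin-Cre crypts. Points are shares and bars exact 95% intervals; CTCF climbs to 95.4% in decile 10, while RAD21 reaches 95.8% in decile 5.

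Class calls rarely hung on the edge of a peak. Only 5 of 18061 overlapping pairs had less than 50 bp in common, 27 CTCF-only peaks had a RAD21 peak within 250 bp, and 30 RAD21-only peaks had a CTCF peak within 250 bp.

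Within shared sites the scores of both factors went together. Spearman's rho was 0.563 over the 16625 overlapping pairs of the KO lists and 0.605 over the 18061 of the WT lists (Pearson's r of log10 scores 0.5999 in WT). Pairs share chromatin, input and 2 libraries, so these are descriptions with no p-value. The median RAD21 score was 15.1 in CTCF decile 1, 22.4 in decile 5 and 73.1 in decile 10. Even there the spread was wide, with the middle 50% of RAD21 scores between 39.6 and 113. The CTCF score was the higher in 96.4% of pairs, with a median RAD21 to CTCF ratio of 0.370. Each score also depends on its own library's depth, so the ratio is not an amount of protein.

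**Figure D2:**
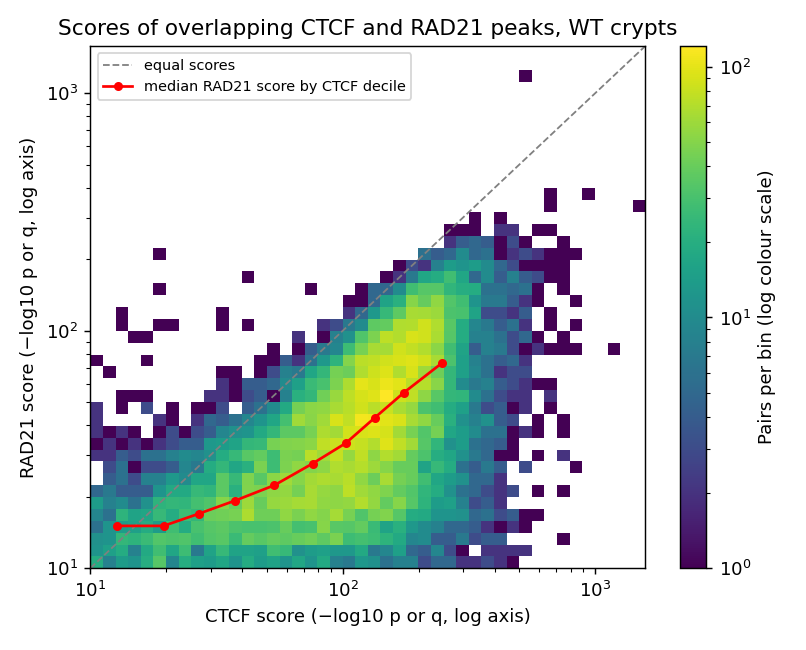
RAD21 score (y axis) against CTCF score (x axis) of the 18061 overlapping WT pairs, both −log10 p or q on log axes, with colour giving pairs per bin. The red line joins the median RAD21 score of each CTCF decile, 15.1 at the weakest and 73.1 at the strongest, and nearly all pairs lie under the dashed line of equal scores.

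The peaks of a pair were also close in place. Their centres were a median of 82 bp apart (quartiles 37.5 and 151), 88.7% lay within 250 bp, and 63.4% of RAD21 peaks in pairs lay wholly inside the CTCF peak. In 789 pairs the centres were over 500 bp apart.

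RAD21 centres leaned to the 3′ side of the CTCF centres, along the motif, on the few sites where it could be read. In 185 shared peaks with exactly 1 core match in a start window, the RAD21 centre lay a median of 55.5 bp to the 3′ side of the CTCF centre along the motif (quartiles -54 and 164.5). The RAD21 centre was on the 3′ side of the CTCF centre in 115 of the 184 pairs with unequal centres, 62.5% (55.1 to 69.5). Measured from the motif, with 3′ as positive, the median offset was 40 bp for the RAD21 centre and -25 bp for the CTCF centre. Part of the distance between the centres thus lay on the CTCF side of the motif. With the motif within 100 bp of the CTCF centre, the RAD21 centre was on the 3′ side of the CTCF centre in 52 of 87, 59.8% (48.7 to 70.1). That interval includes an even split. Cohesin stalled by extrusion is known to sit at the 3′ side of the motif in other mammalian cells. Examples vary: the RAD21 centre was 379 bp to the 3′ side of the CTCF centre at Snx18 and 477 bp at Kif1b, but 113 bp to its 5′ side at Vps18.

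Core matches followed CTCF rather than RAD21. Of all 32817 distinct start windows, 2.43% held a match (796 windows). The share was 9.49% of 2277 windows with a shared site (8.31 to 10.8), 7.63% of 1285 with a CTCF-only site (6.23 to 9.22) and 2.06% of 1405 with a RAD21-only site (1.39 to 2.95). In the 27850 windows with no CTCF or RAD21 peak it was 1.63% (1.48 to 1.78). RAD21-only windows thus held the core about as often as windows at large, although they were the most GC-rich, at a median of 64.3% GC against 60.7% for shared and for CTCF only. The share climbed with the CTCF score, at 4.49%, 7.30%, 9.21% and 14.3% over 4 equal groups of rising score. In the top group it was 13.7% of 793 shared windows (11.4 to 16.3) and 18.4% of 98 CTCF-only windows (11.3 to 27.5), with overlapping intervals. These letters find only a part of CTCF sites, and a match is not proof of binding.

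The classes sat in different places relative to genes. Over all 35304 sites, 19.3% lay within 1 kb of either end of a protein-coding gene. It was 18.6% of shared sites (18.01 to 19.2), 13.9% of CTCF-only sites (13.4 to 14.5) and 54.2% of RAD21-only sites (52.3 to 56.1). A further 39.8% of shared, 46.9% of CTCF-only and 23.3% of RAD21-only sites lay inside genes away from their ends. The remaining 41.6%, 39.2% and 22.4%, in the same order, lay outside genes.

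The gene-end excess of RAD21-only sites was at gene starts. Where the start could be told from the far end, 11.9% of shared sites (11.4 to 12.4), 9.41% of CTCF-only sites (8.93 to 9.89) and 49.8% of RAD21-only sites (47.9 to 51.8) lay within 1 kb of a start. Only the far end was near in 4.35% of shared, 3.11% of CTCF-only and 0.976% of RAD21-only sites. Starts were known for 20 of the 21 chromosomes. Few sites of any class lay near tRNA genes, a place of cohesin loading in yeast: 0.207% of shared, 0.243% of CTCF-only and 0.452% of RAD21-only sites. Counted by gene, 12.7% of the 408 tRNA genes had a shared site within 1 kb, 12.5% a CTCF-only and 4.17% a RAD21-only site. Of protein-coding genes, 16.3%, 10.5% and 7.52%, in the same order, had one within 1 kb of an end.

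**Figure D3:**
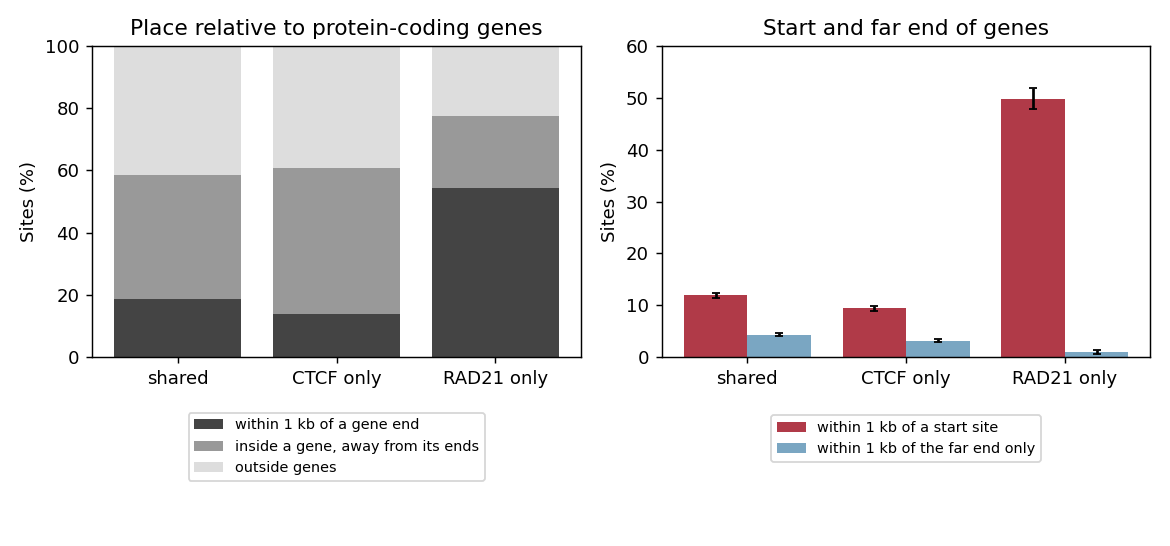
Left, share of sites of each class (y axis, percent) within 1 kb of a protein-coding gene end, elsewhere inside a gene, or outside genes. Right, share within 1 kb of a start site and of the far end only, with exact 95% intervals as bars; RAD21-only sites reach 49.8% at starts, against 11.9% of shared and 9.41% of CTCF-only sites.

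The smaller gap between shared and CTCF-only sites depended on score. With the CTCF list cut into 5 equal groups by score (quintiles, 1 the weakest), quintile 1 had 42.4% of 901 shared sites (39.1 to 45.7) and 14.5% of 5630 CTCF-only sites (13.6 to 15.5) at a gene end. In quintile 5 the order was the other way, 22.8% of 6150 shared (21.7 to 23.8) and 37.1% of 380 CTCF-only sites (32.2 to 42.2). With only peaks of score 20 or more in both lists and classes made anew, it was 16.2% of shared and 15.8% of CTCF-only sites. A peak whose partner scored under 20 then counted as without it. Of the 13850 CTCF-only sites so made, 10071 had no RAD21 peak in the full list. RAD21-only sites kept their place, at 51.7%, 59.1% and 67.8% in RAD21 quintiles 1 to 3. With classes made anew at 20 it was 64.0% of 381, of which 265 had no CTCF peak in the full list.

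**Figure D4:**
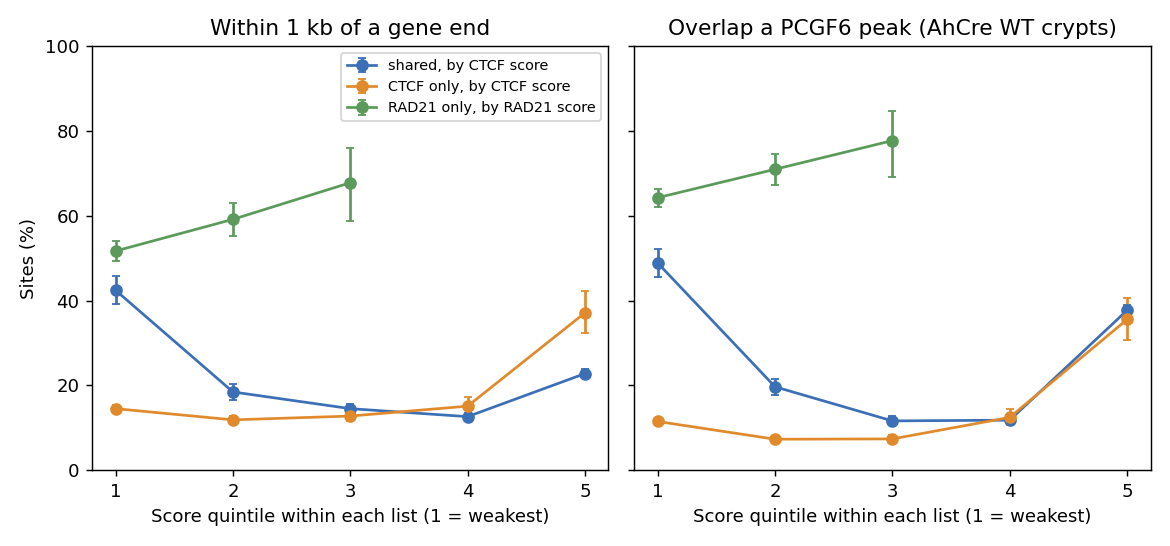
Share of sites (y axis, percent) within 1 kb of a gene end (left) and overlapping a PCGF6 peak of WT AhCre crypts (right), by score quintile within the list named in the legend (x axis, 1 the weakest). Bars are exact 95% intervals and points under 20 sites are left out; RAD21-only sites stand highest in the quintiles shown, and at gene ends shared sites lie above CTCF-only sites in quintile 1 and below them in quintile 5.

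Along the chromosomes, RAD21-only sites were the most widely spaced. The median distance to the next site of the same class was 21.1 kb for shared, 26.0 kb for CTCF-only and 92.8 kb for RAD21-only sites, an order that follows their numbers. With classes made anew from peaks of score 20 or more, shared sites were 29.3 kb and CTCF-only sites 26.2 kb apart. The order of these classes thus turned, but CTCF only then included sites with a weaker RAD21 peak. RAD21-only sites, which by definition overlap no CTCF peak, had the nearest one a median of 14.01 kb away. A CTCF peak lay within 1 kb of 7.35% (6.39 to 8.41) and within 5 kb of 27.5% of them. CTCF peaks themselves had the next CTCF peak a median of 10.99 kb away, and 30.1% had one within 5 kb. CTCF-only sites had the nearest RAD21 peak a median of 20.04 kb away. Gaps between neighbouring shared sites had a median of 46.1 kb, 402 were over 1 Mb, and the longest spanned 13.9 Mb.

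Chromosome X had fewer shared CTCF peaks. RAD21 lay at 39.1% of its 816 CTCF peaks (35.7 to 42.5), against 55.1% on the autosomes (54.5 to 55.6), where single chromosomes ranged between 49.8% and 58.1%. Its CTCF peaks also had lower scores, with a median of 44.6 on X against 64.4 on the autosomes. Within CTCF quintiles, X was lower in quintile 1, at 7.47% (4.04 to 12.4) against 13.97% (13.1 to 14.8) on the autosomes. It was also lower in quintile 4, at 70.1% (61.7 to 77.6) against 83.0% (82.0 to 83.9), while the intervals overlapped in quintiles 2, 3 and 5. Scores were not equal within quintiles: the median CTCF score on X and on the autosomes was 17.2 and 16.0 in quintile 1, and 108 and 118 in quintile 4. Whether score accounts for the lower share on X was not tested. In the KO lists it was 38.1% on X, against 51.4% on the autosomes.

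Shared and CTCF-only sites were largely found again in the KO lists, whereas RAD21-only sites were not. Over all WT peaks, 90.8% of CTCF peaks overlapped a KO CTCF peak and 75.6% of RAD21 peaks a KO RAD21 peak. Of shared sites, 82.9% had both factors in KO crypts (82.3 to 83.4) and 14.3% CTCF alone (13.8 to 14.8). Of CTCF-only sites, 73.0% again had CTCF alone (72.3 to 73.7) and 10.2% had both (9.68 to 10.7). Of RAD21-only sites, 20.02% again had RAD21 alone (18.5 to 21.6), 4.90% had a KO CTCF peak (4.11 to 5.79) and 75.1% had neither (73.4 to 76.7).

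Low scores moved with that difference. In RAD21 quintile 1 a KO RAD21 peak lay at 15.4% of 1918 RAD21-only sites (13.8 to 17.1) and at 37.8% of 2213 shared ones (35.8 to 39.9). In quintile 3 it was 53.7% of 121 RAD21-only (44.4 to 62.8) and 90.5% of 4010 shared peaks (89.5 to 91.4). RAD21-only peaks were thus found again less often within both quintiles, where their median score was somewhat lower (11.7 against 12.8 for shared in quintile 1, and 27.6 against 29.7 in quintile 3). The KO RAD21 list is shorter, with 17762 peaks against 20653 in WT, and loss of Pcgf6 and the change of library cannot be told apart. The strongest CTCF-only sites, those of CTCF quintile 5, kept CTCF in 380 of 380 cases, and 27.9% of them (23.4 to 32.7) had RAD21 in KO crypts.

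**Figure D5:**
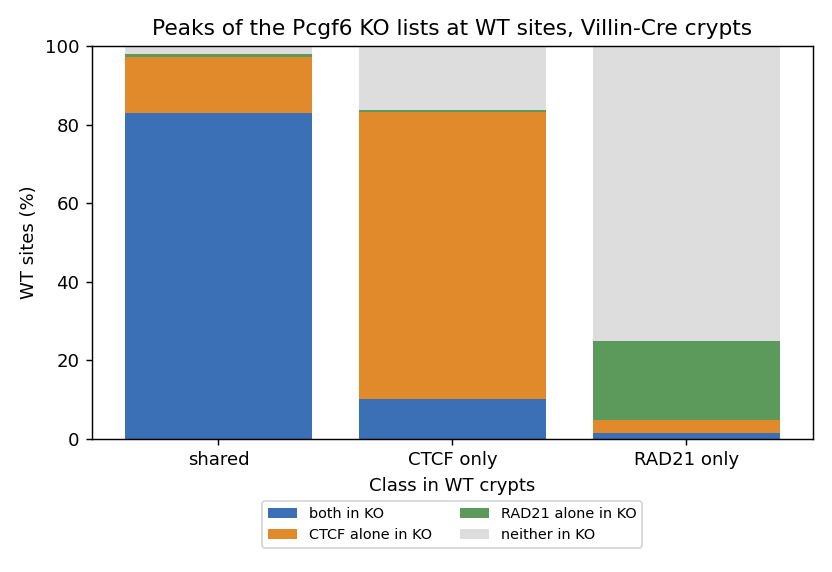
Share of WT sites of each class (y axis, percent) at which the KO Villin-Cre lists held both factors, CTCF alone, RAD21 alone or neither. Shared sites mostly kept both (82.9%), CTCF-only sites mostly CTCF alone (73.0%), and RAD21-only sites mostly neither (75.1%).

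RAD21-only sites were the class that met Polycomb proteins most often. PCGF6 is the subunit that defines the variant Polycomb repressive complex PRC1.6, RING1B is the ubiquitin ligase of PRC1 complexes, and H2AK119ub1 is the histone mark it places. PCGF6 peaks of WT AhCre crypts, another Cre line, covered 23.3% of shared sites (22.7 to 23.9), 10.0% of CTCF-only sites (9.55 to 10.5) and 66.5% of RAD21-only sites (64.7 to 68.3), against 21% of all sites. RING1B peaks of WT Villin-Cre crypts covered 5.26% of shared, 2.63% of CTCF-only and 17.6% of RAD21-only sites (16.1 to 19.1), with 5.08% over all sites. H2AK119ub1 did not share that order. It covered 5.46% of shared (5.13 to 5.80), 2.53% of CTCF-only (2.29 to 2.80) and 3.81% of RAD21-only sites (3.11 to 4.61), with 4.11% over all.

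The AhCre lists of the same marks gave the same orders over all sites, although for H2AK119ub1 the intervals of CTCF-only and RAD21-only sites overlapped. RING1B covered 2.76% of shared, 1.49% of CTCF-only and 7.24% of RAD21-only sites there, and H2AK119ub1 10.99%, 4.95% and 5.62% of them. The order of PCGF6 was the same at and away from gene ends. At gene ends PCGF6 covered 57.6% of shared, 43.1% of CTCF-only and 77.6% of RAD21-only sites, and elsewhere 15.5%, 4.68% and 53.3%. RING1B kept its order too, but shared and RAD21-only sites were closer at gene ends. In Villin-Cre crypts it covered 17.5% of shared, 12.5% of CTCF-only and 22.4% of RAD21-only sites there, and elsewhere 2.47%, 1.03% and 11.9%. In AhCre crypts RING1B covered 8.38%, 6.44% and 9.38% at gene ends, where the intervals of shared and RAD21-only sites overlapped. Elsewhere it covered 1.47%, 0.691% and 4.70% in AhCre crypts. The order of H2AK119ub1 turned with place, since at gene ends RAD21-only sites had the least. In Villin-Cre crypts it covered 10.4% of shared (9.41 to 11.5), 7.41% of CTCF-only (6.32 to 8.63) and 4.45% of RAD21-only sites (3.44 to 5.64) there, and in AhCre crypts 16.8%, 11.2% and 5.49%. Among shared sites, PCGF6 was most frequent at both ends of the CTCF score, with 48.8% in quintile 1, 11.6% in quintile 3 and 37.7% in quintile 5. RING1B of Villin-Cre crypts covered 18.2% of the 901 shared sites in quintile 1 (15.7 to 20.9), 4.03% in quintile 3 and 5.98% in quintile 5. Shared sites with the weakest CTCF thus met RING1B about as often as RAD21-only sites did (17.6%).

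Shared sites where RAD21 had the higher score lay often at gene ends and at PCGF6. There were 648 such pairs, with 638 RAD21 peaks. Of these peaks 39.3% lay at a gene end (35.5 to 43.3), against 16.7% of 17395 RAD21 peaks in the other pairs (16.2 to 17.3). PCGF6 overlapped 46.1% of them (42.2 to 50.04), against 22.5% of the others (21.9 to 23.2). Their median CTCF score was 17.2, against 122 in the other pairs, while their median RAD21 score was 24.96, against 34.5. Choosing pairs by a RAD21 score above the CTCF score itself favours weak CTCF. Shared sites of CTCF quintile 1 as a whole, read as CTCF peaks, had shares as high, 42.4% at gene ends and 48.8% with PCGF6. Whether weak CTCF accounts for the shares of these pairs was not tested. KO crypts had RAD21 at 62.5% of the 638 peaks (58.7 to 66.3), against 84.4% of the others (83.9 to 84.96). The strongest RAD21 peaks of this kind at gene ends, looked up after the values were seen, included Epha4, an ephrin receptor, with CTCF 19.5 in WT and RAD21 179 in KO and 207 in WT crypts. Jag1, a Notch ligand, had CTCF 74.5 in WT and RAD21 97.7 in KO and 158 in WT crypts. Mttp, the microsomal triglyceride transfer protein of lipid-absorbing enterocytes, had CTCF 16.6 in WT and RAD21 78.3 in KO and 92.3 in WT crypts, at a peak that it shares with Trmt10a. Others did not keep RAD21 as well. Dip2b had RAD21 32.8 in KO and 145 in WT crypts, and the peak of Atl1 and Map4k5, with 162 in WT, had none in KO crypts.

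Of 21887 protein-coding genes, 6971 had a site within 1 kb of an end. That is 31.85% of all. A shared site lay at 3569 (16.3%), a CTCF-only site at 2288 (10.5%) and a RAD21-only site at 1646 (7.52%). With classes made anew from peaks of score 20 or more these were 2367, 2408 and 270 genes. CTCF-only then stood above shared, but included sites with a RAD21 peak under that score. Of the 1646 genes with a RAD21-only site in the full lists, 1393 had no CTCF peak at either end. Genes in a list are set against these percentages below, as counts without a test.

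The strongest shared sites at gene ends lay at Hjurp, the chaperone that loads the centromeric histone CENP-A, and at Lif, a cytokine gene. Hjurp (chr1:88277027-88278581) had a CTCF score of 1419, the highest of the list, and a RAD21 score of 343. Lif had a CTCF score of 691 and a RAD21 score of 372. Next came Plcd3 with Acbd4, Arid3a with Kiss1r, Gm33099, Comtd1 with A430057M04Rik, and Irak2, a kinase of interleukin-1 receptor signalling, where CTCF was between 515 and 885 and RAD21 between 187 and 223. All 7 peaks behind these genes had both factors in KO crypts.

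The strongest CTCF-only sites at gene ends had CTCF scores of 387 to 615, against 515 to 1419 at the strongest shared ones. Trrap, a scaffold of histone acetyltransferase complexes, had 615, Atp6v1d, a subunit of the vacuolar proton pump, and its neighbour Eif2s1, a translation initiation factor, 610 at 1 peak, and Rab2b with Tox4 599. Wwox, Kdm3b, Wdr70, Rps3a1 and Mrps33 followed, with 387 to 461. No RAD21 was called at any of these in WT, although their CTCF scores exceed those of most shared sites. All 8 peaks had CTCF again in KO crypts and 2 gained a weak RAD21 call there, 15.1 at Rab2b with Tox4 and 18.8 at Wdr70.

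The strongest RAD21-only site of all lay at the start of Arrdc3 (chr13:80885114-80886986), with a RAD21 score of 102, far above the class median of 12.8. It is 1729 bp from the gene end in the annotation used, so Arrdc3 is not among the genes counted. Ror2 had 77.6, Cblb 63.1 and Ier5, an immediate early gene, 49.1. Behind them stood Ski, a repressor of TGF-β signalling, Fam122a, Insr, the insulin receptor, Ezr, the ezrin gene whose protein ties the membrane of microvilli to actin, Ctnna1, the α-catenin of adherens junctions, at a peak shared with Gm46617, and Cers6, a ceramide synthase, with 41.6 to 46.1. KO crypts had RAD21 at 8 of the 9 peaks behind these genes, all but Ror2, and CTCF at none of them.

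Genes of CTCF and cohesin themselves had sites at 8 of 24 (33.3%), close to the 31.85% of all genes. Of the 24, 6 had a shared site (25%), 1 a CTCF-only and 1 a RAD21-only site. Esco1, an acetyltransferase of cohesin, had the strongest CTCF, 590, with a RAD21 score of only 29.7. Pds5a and Pds5b, regulators of cohesin release, had CTCF 236 and 82.3 with RAD21 61.5 and 39.3. Smc3 and Stag2, subunits of the complex, had CTCF 164 and 91.3 with RAD21 23.7 and 37.3. Zfp143, a zinc finger factor found at promoters, had CTCF 170 and RAD21 11.7. Ctcf itself had a weak CTCF-only site (11.7), and Cdca5, which encodes the cohesin protector sororin, a RAD21-only site (20.6).

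Ribosomal protein genes stood out for CTCF without cohesin. A CTCF-only site lay at 35 of 79 (44.3%, against 10.5% of all genes). A shared site lay at 18 (22.8%, against 16.3%) and a RAD21-only site at 8 (10.1%, against 7.52%). Rps3a1 and Rps29 had CTCF-only peaks of 413 and 328. By the mean rank of both scores Rps19 had the strongest shared site, with CTCF 231 and RAD21 90.6, ahead of Rpl10a, with 276 and 45.3. Rpl27a had the strongest RAD21-only site, 18.5.

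Among genes that mark crypt cells, the epithelial keratin and adhesion genes were marked most often, at 10 of 12 (83.3%, against 31.85% of all genes). Shared and RAD21-only sites lay at 5 genes each (41.7%, against 16.3% and 7.52% of all genes) and CTCF-only sites at none. Shared ones included Elf3 (CTCF 196, RAD21 55.8), an epithelial transcription factor, Krt8 (96.9 and 30.2) and Cdh1 (24.4 and 23.7), the E-cadherin gene. RAD21-only ones included Epcam (30.3), an epithelial surface protein, and Cdh17 (19.96), an intestinal cadherin. Immune markers had a site at 1 of 17 genes (5.88%), a CTCF-only peak at Cd3g (57.9), and no RAD21. Mesenchymal and endothelial markers had sites at 6 of 18 (33.3%) and shared ones at 3 (16.7%), close to the shares of all genes. Col1a1, a fibroblast collagen, had CTCF 508 and RAD21 147. A peak list does not show which cells its chromatin came from.

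Intestinal stem cell markers had a site at 12 of 21 genes (57.1%, against 31.85% of all genes). A shared site lay at 6 (28.6%, against 16.3%), a CTCF-only site at 4 (19%, against 10.5%) and a RAD21-only site at 5 (23.8%, against 7.52%). Ephb3, a receptor that positions cells in the crypt, had CTCF 234 and RAD21 145 at a shared site. Rnf43, a ligase that removes Wnt receptors, had 240 and 102, and Msi1, an RNA-binding protein, 240 and 76.1. The shared site at Lgr5 was near the minimum score, with CTCF 10.7 and RAD21 10.6, and had neither factor in KO crypts. RAD21-only sites lay at Lrig1 (27.6), a brake on epidermal growth factor receptors, and Sox9 (24.8), a transcription factor of crypt progenitors. CTCF-only sites included Tert (25.4), the telomerase reverse transcriptase, and another site of Ephb2 (47.5).

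Enterocyte markers had a site at 12 of 24 (50%, against 31.85% of all genes). Shared sites lay at 9 (37.5%, against 16.3%), CTCF-only sites at 2 (8.33%, against 10.5%) and RAD21-only sites at 3 (12.5%, against 7.52%). Apob, the structural protein of chylomicrons, had CTCF 263 and RAD21 149 at a shared site, Apoa1 175 and 49.5, and Alpi, the intestinal alkaline phosphatase, 169 and 36.5. Klf5, a transcription factor of crypt cells, and Fabp2, a fatty acid carrier, had RAD21-only peaks of 24.96 and 12.8. Slc2a5, the fructose transporter, had a CTCF-only peak of 89.6.

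Markers of secretory cells had sites less often than the 31.85% of all genes, and tuft cell markers about as often. Goblet cell markers had a shared site at 2 of 13, at Muc2, the main intestinal mucin (CTCF 174, RAD21 106), and at Clca1 (120 and 77.9). Enteroendocrine markers had one at 2 of 22, at Nkx2-2 (187 and 117) and Sct, the secretin gene (61.7 and 26.6). Paneth cell markers had sites at 1 of 11, Dll4, a Notch ligand, with both a shared (36.04 and 13.5) and a CTCF-only peak (32.7). Tuft cell markers had sites at 8 of 25 (32%), with 3 shared, 3 CTCF only and 2 RAD21 only. Trpm5, the cation channel of tuft cells, had CTCF 131 and RAD21 83.3, Sh2d6 had 299 and 130, and Gfi1b a CTCF-only peak of 196. Olfactory receptor genes, silent outside the nose, had a site at 7 of 1110, none of them RAD21 only.

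The 4 Hox clusters, where CTCF is known to separate active and silent genes, held 18 shared and 7 CTCF-only sites and no RAD21-only site. Over all CTCF peaks, 54.7% were shared. By gene the shares were near those of all genes. Of 39 Hox genes, 30.8% had a site (against 31.85%), 17.9% a shared one (against 16.3%), 12.8% a CTCF-only one (against 10.5%) and 0% a RAD21-only one (against 7.52%). CTCF scores of the shared ones ran between 38.9 and 375, with a median of 127, and those of the CTCF-only ones between 22.9 and 151, with a median of 37.6. The strongest lay at Hoxa9 (CTCF 375, RAD21 197), followed in the Hoxa cluster by a site at chr6:52211081-52212543 (229 and 29.6) and by the peak that Hoxa5 and Hoxa6 share (213 and 72.8). The peak of Hoxa10 and Hoxa11 had CTCF 151 and no RAD21 in WT or KO. In KO crypts CTCF lay at 18 of 18 shared and 6 of 7 CTCF-only sites, and RAD21 at 15 and 1 of them. Over all sites of these classes, KO CTCF lay at 97.2% of shared and 83.2% of CTCF-only sites, and KO RAD21 at 83.7% and 10.6%.

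The clustered protocadherins, neuronal adhesion genes whose promoters are chosen through CTCF and cohesin, showed the reverse balance. A CTCF-only site lay at 24 of 57 genes (42.1%, against 10.5% of all genes) and a shared one at 3 (5.26%, against 16.3%). Genes with any site also numbered 24, so the 3 with a shared site had a CTCF-only site as well. The 24 genes rest on 10 peaks, since neighbouring genes share them, and the whole cluster held 5 shared and 12 CTCF-only sites. Median CTCF scores there were 95.3 for shared and 23.6 for CTCF-only sites. Pcdhgb6 had the strongest shared site at a gene end, with CTCF 126 and RAD21 43.1.

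Imprinted genes had sites at 12 of 42 (28.6%, against 31.85% of all genes). Shared sites lay at 3 (7.14%, against 16.3%), CTCF-only sites at 6 (14.3%, against 10.5%) and RAD21-only sites at 3 (7.14%, against 7.52%). Kcnk9 had CTCF 131 and RAD21 39.1, and H13, which encodes a signal peptide peptidase, 242 and 13.6. Copg2 (12.8) and Cd81 (11.7) had weak RAD21-only peaks, and Ppp1r9a (38.9) and Ube3a (24.3) CTCF-only ones. The region of H19 and Igf2, a textbook case of insulation by CTCF, held 4 shared sites and none of the other classes, with CTCF scores of 49.8 to 105 and RAD21 scores of 22.4 to 46.6. Around Myc, the proto-oncogene downstream of Wnt, lay 4 shared sites, of which the strongest had CTCF 232 and RAD21 114. The others had weak CTCF, at 19.5, 18.3 and 38.9, and KO crypts had CTCF only at the last of these.

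A single site stood far from the others in score. At the CTCF peak chr2:98666756-98667175, CTCF had a score of 649 in KO and 535 in WT crypts. RAD21 had 1620.1 in KO and 1161 in WT crypts, the highest score of the WT RAD21 list. The nearest protein-coding gene end, that of Lrrc4c, was 1035083 bp away. The region is known for artificially high signal in mouse sequencing data, and its part in this score was not tested.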

How the data were processed

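Per the labels, the chromatin was crosslinked for 15 min (formaldehyde, 1%) and sonicated to 500 bp. Per the submitters' processing notes, MACS2 2.1.1 and both Bowtie 1.1.2 and Bowtie 1.2.2 were in use. These notes list 3 builds (hg38, dm6 and mm10) and no roles. The peaks match mm10 positions. The labels name the WT input as reference. The authors deposited 1 list per library, with a −log10 score per peak, and whether a p-value or a q-value is meant was not stated. The minimum score was 10.

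Chromosomes 1 to 19, X and Y were kept, with 1-based positions. Shared means at least 1 bp of overlap, shown as CTCF peaks. The RefSeq table (GRCm38.p6, no strand) gave 21887 protein-coding genes. Starts and windows of 250 bases before and 50 after came from the RefSeq promoter table. Score ranks used each whole list. With 1 library a group, values are counts, medians and shares with exact Clopper-Pearson 95% intervals, without tests. Named genes were the 10 with the strongest site of each class (shared sites by mean score rank), the machinery list, and of each other list up to 4 shared and 2 of each other class, of which some are described here. Members and lists were chosen with earlier results of these data known. Overlap counts were checked with bedtools and differed in 0 of 4. Tools were bedtools 2.31.1, matplotlib 3.10.9, scipy 1.17.1, pandas 2.3.3, numpy 2.4.6 and Python 3.11.15.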

Additional observations from a re-analysis of the deposited data

How the results depend on the processing

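No paired analysis was possible because each group has 1 library. Of 73 alternatives for the main values, 33 moved less than their limit and 40 moved more. At scores of at least 20 or 50 both lists were cut and classes made anew, so a peak whose partner scored lower counted as without it. With that setting at 20, the order of shared and CTCF-only sites turned for spacing and for genes with a site. The unknown depth and the threshold of 10 limit every absence of a factor.
Share of CTCF peaks with RAD21: 49.1% with centres within 250 bp, 49.1% and 31.9% at scores of at least 20 and 50, and 75.6% with lists of equal length. Share of RAD21 peaks with CTCF under the same settings: 77.5%, 97.2%, 99.4% and 76.6%. Spearman's rho: 0.625, 0.544, 0.473 and 0.521, and 0.623 over 1-to-1 pairs, an alternative chosen after seeing the data. Sites at a gene end with a 5 kb window: shared 37.6%, CTCF only 32.7%, RAD21 only 64.3%. With no window: 9.95%, 6.21% and 30.2%. At scores of at least 20: 16.2%, 15.8% and 64.0%. Genes with a shared site: 7046 with 5 kb, 1927 with no window and 2367 at 20. Genes with a CTCF-only site: 5315 with 5 kb, 1011 with no window and 2408 at 20. Genes with a RAD21-only site: 904 with no window and 270 at 20. Median spacing at 20: 29.3 kb for shared, 26.2 kb for CTCF-only and 1313 kb for RAD21-only sites. Found again in KO at 20: 94.7% of shared sites with both, 96.2% of CTCF-only sites with CTCF and 53.8% of RAD21-only sites with RAD21. Without a score cut, a gap of 500 bp allowed to the KO list gave 23.0% of all 2653 RAD21-only sites, against 21.4% with no gap. The rise at a score of 20 follows from its construction, which leaves out weak peaks. PCGF6 overlap at 20: 22.2% of shared, 12.4% of CTCF-only and 72.2% of RAD21-only sites. With the 500 bp gap to the PCGF6 list and no score cut: 24.1% of shared and 11.4% of CTCF-only sites. Of 9 alternatives each, 5 for RING1B and 6 for H2AK119ub1 moved past their limit.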
